A study of Homo sapiens with 27 samples.

Results

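The genes described here are grouped around ATF4 and amino acid supply. They comprise 7 stress factors with ATF4 among them, 8 enzymes of amino acid synthesis and its one-carbon branch, and 4 subunits or carriers of amino acid transport. The other 20 are cytosolic aminoacyl-tRNA synthetases. Whether each gene is a target of ATF4 was not tested. The genes were picked by name, 39 in all, and 38 of them are among the 10470 genes of the deposited table. DDIT3 was not analysed here. The transcription factors CEBPB and CEBPG averaged less than 10 TPM (transcripts in each 1000000), which leaves 36 members among the 6458 genes tested. In cells depleted of all 3 VPS37 paralogs together 5 of these 36 genes rose and 1 fell, where 21.9% of all tested genes changed. These counts come from a model without the replicate number, and more members and more of all tested genes passed with that number as a block.

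ATF4 is a transcription factor of the integrated stress response. Kinases that sense amino acid shortage, unfolded protein in the endoplasmic reticulum, double-stranded RNA or haem shortage phosphorylate the initiation factor eIF2, which slows translation in general but favours translation of ATF4 mRNA. ATF4 protein, often as a dimer with a C/EBP factor, binds composite C/EBP-ATF elements and induces genes that import and make amino acids and load them onto tRNAs. The level of ATF4 mRNA is therefore not a measure of ATF4 protein.

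RNA was measured with an amplicon panel for human transcripts (AmpliSeq) in the human colorectal carcinoma line DLD1. Cells were taken 72 h after they had received small interfering RNAs (siRNAs). VPS37A, VPS37B and VPS37C encode alternative subunits of ESCRT-I, a complex that sorts ubiquitinated membrane proteins into the lysosomal pathway. The groups, of 3 libraries each, are siVPS37ABC (all 3 paralogs targeted), siVPS37AB, siVPS37AC and siVPS37BC (pairs), siVPS37A, siVPS37B and siVPS37C (single paralogs), siCTRL (cells given control siRNAs) and NT (cells left untransfected). Each paralog was targeted by 1 siRNA sequence, which the labels mark #1, in 1 cell line, so an effect of a sequence on other transcripts cannot be told apart from that of its target. Which control siRNAs make up siCTRL is not given. The labels call the replicates biological, with a batch number equal to the replicate number. Whether these were separate cultures is not stated further, so p-values measure the spread between these libraries.

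Library depth, rebuilt from the deposited values, was 5252480 to 14251981 reads with a median of 8529700. Of the 38 members, 35 had at least 100 reads in every library, and the lowest count of any member was 22 reads (CEBPB). In the 4 groups that targeted each gene, VPS37A stood at 2.52 to 10.2%, VPS37B at 2.08 to 8.78% and VPS37C at 17.8 to 31.8% of the siCTRL mean. Of 9 colorectal epithelial markers 8 are in the table, and all but VIL1 of these averaged at least 10 TPM. They summed to 7848 to 12581 TPM per library. Of the 5 leukocyte markers only CD14 is in the table, at a mean of 6.53 TPM, and fibroblast and endothelial markers were not analysed here.

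Composite C/EBP-ATF elements share the core TGATGNAA, read on either strand. RefSeq promoters on GRCh38.p14, from 250 bases before to 50 after the annotated start, were matched for 31 of the 38 members, and 9 of them hold this core. It is present in 91 of 5424 promoters of tested genes (1.68%) and in 1003 of 27305 promoters in all (3.67%). A match is only a stretch of letters, and factor binding was not measured. PSPH, SHMT2, PYCR1, DARS, LARS, VARS and YARS were not matched. CARS, the cysteinyl-tRNA synthetase gene, is the one gene that both holds the core and changed in siVPS37ABC, so its promoter is shown whole (chr11:3057374-3057673, minus strand), with the core, which here reads in reverse, in capitals.
CARS promoter: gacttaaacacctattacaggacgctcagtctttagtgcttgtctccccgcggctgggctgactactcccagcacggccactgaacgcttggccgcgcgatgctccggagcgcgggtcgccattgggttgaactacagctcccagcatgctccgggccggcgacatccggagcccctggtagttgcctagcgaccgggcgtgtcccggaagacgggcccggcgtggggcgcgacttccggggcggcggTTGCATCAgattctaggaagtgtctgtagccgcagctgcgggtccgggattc

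The other 8 members with the core are shown as short windows, a set chosen after the values were seen. Their core letters agree because the search required them, apart from the base at N. Each is written in the direction of transcription with the core or its reverse complement in capitals. They lie at chr15:40953251-40953280 (plus strand, CHAC1), chr7:97872458-97872487 (minus, ASNS), chr11:62881725-62881748 (plus, SLC3A2), chr16:70289675-70289704 (minus, AARS), chr9:92293692-92293721 (minus, IARS), chr12:57488053-57488082 (plus, MARS), chr18:57621804-57621833 (minus, NARS) and chr5:33440956-33440985 (plus, TARS). Their first core base lies at -209 (CHAC1), -68 (ASNS), 37 (SLC3A2), -187 (AARS), -13 (IARS), -4 (MARS), 14 (NARS) and 2 (TARS) bases from the annotated start, and at -2 in CARS.
CHAC1: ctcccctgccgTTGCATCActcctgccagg
ASNS: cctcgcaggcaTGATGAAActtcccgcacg
SLC3A2: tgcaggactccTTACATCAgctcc
AARS: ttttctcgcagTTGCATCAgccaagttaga
IARS: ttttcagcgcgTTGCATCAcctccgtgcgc
MARS: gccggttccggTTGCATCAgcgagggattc
NARS: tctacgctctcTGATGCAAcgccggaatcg
TARS: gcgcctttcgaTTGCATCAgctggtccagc
Of the 9 genes 6 encode synthetases, of 16 synthetases matched, and in 5 of those 6 the core begins within 14 bases of the start. CARS alone of the 9 changed in siVPS37ABC, and their median log2 change was 0.26, against 0.07 for the 27 tested members with no core found or no promoter matched.

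Against siCTRL, 5 of the 36 tested members rose and 1 fell in siVPS37ABC. The neutral amino acid carrier SLC38A2, the ATF4 feedback inhibitor TRIB3, the synthetases CARS and GARS and the mitochondrial one-carbon enzyme MTHFD2 rose, and ALDH18A1, the first enzyme of proline synthesis from glutamate, fell. Each change is given as the difference between group means of log2(TPM + 1) and its standard error (SE), estimated with limma over the 27 libraries together, 3 in each group (n = 3). A gene is said to have changed where its p, adjusted by the Benjamini-Hochberg method over all tested genes, lay below 0.05. By the same rule 21.9% of all tested genes changed, 13.6% upwards and 8.32% downwards. The share of the members that changed, 6 of 36, did not exceed this background. Their median change was 0.10, against 0.03 for all tested genes, and 25 of the 36 were above 0. The balance of rises and falls over all genes depended on scaling. It was 880 up and 537 down here, 777 and 720 after quantile normalization, and 751 and 700 on the rebuilt reads with limma-voom. The counts of members also depended on the batch. With the batch as a block in the model, 3 of 4 tested stress factors, 1 of 8 synthesis enzymes, 1 of 4 transport genes and 4 of 20 synthetases rose. The only fall was then 1 synthesis enzyme, and the block raised the calls over all tested genes too.

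**Figure D1:**
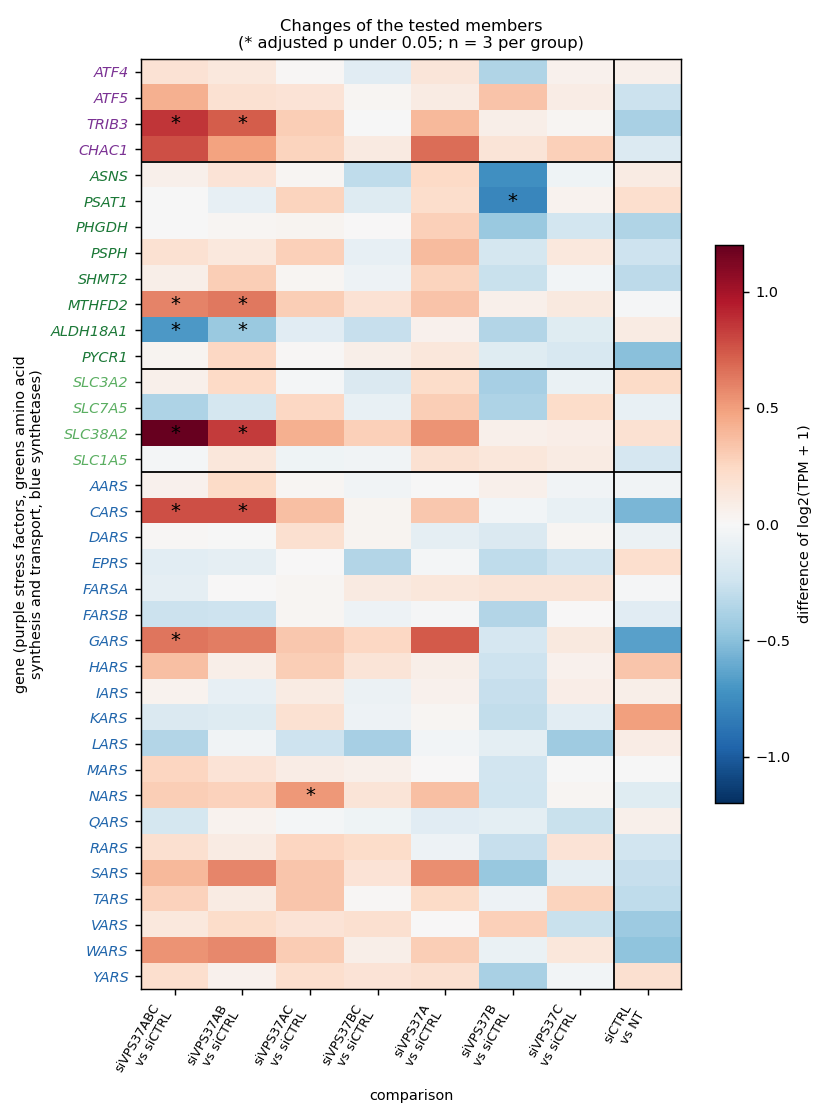
Difference of log2(TPM + 1) of the 36 tested members (rows, grouped by role) in the 7 knockdowns against siCTRL and in siCTRL against NT (columns), n = 3 per group, with asterisks at adjusted p below 0.05. Asterisks fall on 6 genes in siVPS37ABC and 5 in siVPS37AB, and on 1 each in siVPS37AC (NARS) and siVPS37B (PSAT1).

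Among the stress factors, TRIB3, a pseudokinase induced by ATF4 that in turn inhibits it, had 601, 623 and 515 TPM in siVPS37ABC, against 300.5, 387 and 276 TPM in siCTRL. The groups did not overlap, and the difference was 0.86 ± 0.14 (SE), or 1.82-fold (adjusted p = 5.87e-05). CHAC1, which degrades glutathione, had 125, 90.2 and 68.3 TPM in siVPS37ABC, against 79.2, 57.7 and 33.1 TPM in siCTRL. Its ranges overlapped although each library of siVPS37ABC exceeded the siCTRL library of the same batch, and its difference of 0.77 ± 0.29 missed the threshold (adjusted p = 0.0578). With the batch as a block in the model it passed (adjusted p = 0.00214). It also passed without siCTRL replicate 1 (adjusted p = 0.0178) and without siVPS37ABC replicate 3 (adjusted p = 0.0314).

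ATF5, a relative of ATF4 that is also regulated at translation, had 100.6, 77.3 and 93.5 TPM in siVPS37ABC, against 73.3, 68.2 and 59.7 TPM in siCTRL. This was a difference of 0.42 ± 0.22 that passed with the batch block only (adjusted p = 0.185 without it, 0.0235 with it). ATF4 itself had 1028, 866 and 1117 TPM in siVPS37ABC, against 868, 922 and 874 TPM in siCTRL. Those ranges overlapped, and the difference of 0.17 ± 0.13 did not pass (adjusted p = 0.392). Its upper 95% bound of 0.44 on the log2 scale lies below a 1.5-fold rise.

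The dimer partners of ATF4 were low and come from a fit of all 10470 genes without the filter. CEBPB had 8.29, 8.34 and 9.83 TPM in siVPS37ABC, against 4.43, 6.17 and 5.16 TPM in siCTRL, so that the groups did not overlap. It rose by 0.66 ± 0.21 there (adjusted p = 0.0246) and by 0.74 ± 0.21 in siVPS37AB (adjusted p = 0.0164). CEBPG had 13.1, 7.06 and 8.66 TPM in siVPS37ABC, against 9.62, 7.94 and 4.17 TPM in siCTRL, with overlapping ranges and a difference of 0.39 ± 0.31 that did not pass (adjusted p = 0.411).

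Of the 8 enzymes of amino acid synthesis, MTHFD2 rose and ALDH18A1 fell in siVPS37ABC. MTHFD2, which oxidises folate-bound one-carbon units in mitochondria, had 341, 244 and 260 TPM in siVPS37ABC, against 228, 177 and 155 TPM in siCTRL. The difference was 0.59 ± 0.20, or 1.51-fold (adjusted p = 0.0303), and the groups did not overlap. Its call ended without siVPS37ABC replicate 1 (adjusted p = 0.154), siCTRL replicate 2 (0.0831) or siCTRL replicate 3 (0.148), on the rebuilt reads (0.0573), after quantile normalization (0.0655), and with the number that ends each library's description as a term in the model (library number, 0.152). The library numbers of siCTRL are 88, 88 and 603. siVPS37A, siVPS37AB and siVPS37BC carry neither, and the other knockdowns carry 88 or 603 only in replicate 3. The library number is therefore largely confounded with the knockdown, and the fit with it compares groups with siCTRL partly or wholly through other groups.

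ALDH18A1 had 27.4, 33.2 and 30.2 TPM in siVPS37ABC, against 46.7, 48.4 and 52.7 TPM in siCTRL. Every siVPS37ABC library lay below every siCTRL and NT library. The gene fell by 0.69 on the log2 scale, with an SE of 0.12, to 0.621 of the siCTRL level (adjusted p = 9.98e-05). PYCR1, which carries out the last step of the same proline pathway, had 83.5, 74.6 and 83.1 TPM in siVPS37ABC, against 108, 68.4 and 65.9 TPM in siCTRL, a difference of 0.03 ± 0.17 (adjusted p = 0.925).

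No gene of the serine pathway passed the test in siVPS37ABC against siCTRL. PHGDH, its entry enzyme, had 226, 227 and 200 TPM in siVPS37ABC, against 198, 231 and 226 TPM in siCTRL. PSAT1, the second enzyme, had 336, 381 and 492 TPM in siVPS37ABC, against 382, 397 and 422 TPM in siCTRL. Both differences were below 0.01 in size on the log2 scale, with 95% intervals of -0.28 to 0.27 for PHGDH and -0.33 to 0.32 for PSAT1. PSPH, the last enzyme, differed by 0.19 ± 0.12, and SHMT2, which turns serine into glycine in mitochondria, by 0.07 ± 0.15. ASNS, the asparagine synthetase gene that is a standard readout of ATF4, had 50.8, 80.4 and 103 TPM in siVPS37ABC, against 53.2, 85.2 and 81.4 TPM in siCTRL. Its replicates spread widely within groups, and its difference of 0.06 ± 0.32 has a 95% interval of -0.60 to 0.72.

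Among the transport genes SLC38A2, a sodium-coupled carrier of small neutral amino acids, had 155, 162 and 183 TPM in siVPS37ABC, against 66.3, 92.6 and 61.3 TPM in siCTRL. The groups did not overlap, and the difference of 1.19 ± 0.25, or 2.28-fold, was the highest among the tested members (adjusted p = 0.00106). The exchanger subunits SLC3A2 (0.07 ± 0.14) and SLC7A5 (-0.37 ± 0.29) and the glutamine carrier SLC1A5 (-0.02 ± 0.13) did not pass the test. SLC7A5 had 293, 189 and 253 TPM in siVPS37ABC, against 405, 268 and 282 TPM in siCTRL.

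**Figure D2:**
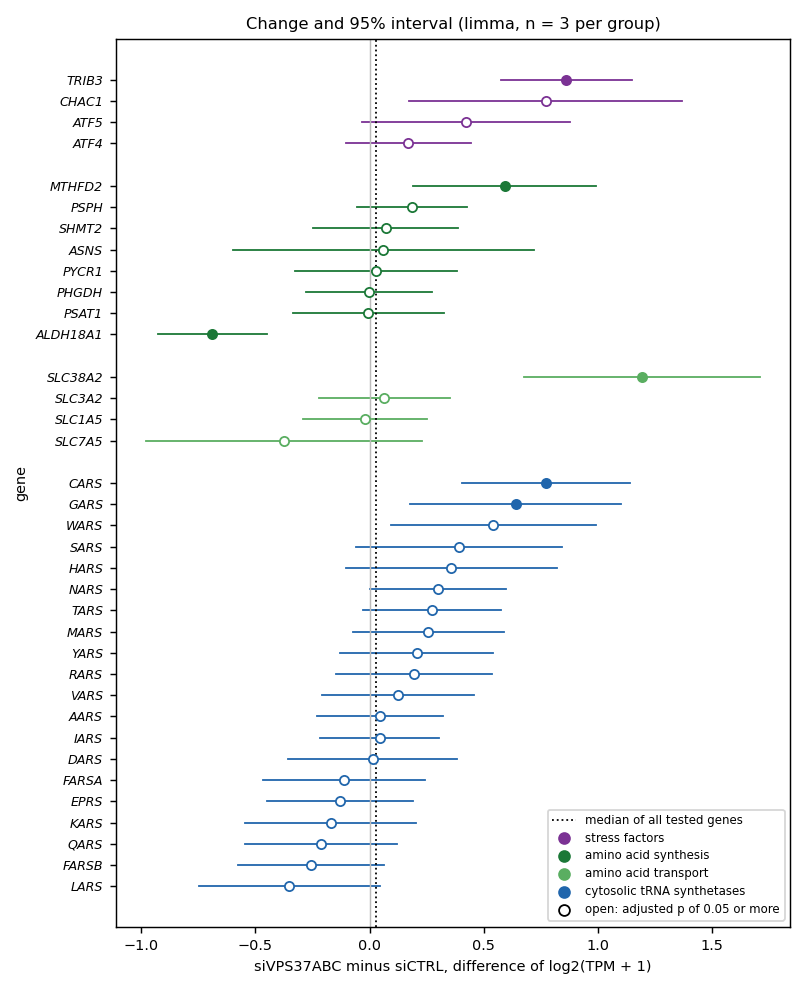
Difference of log2(TPM + 1) between siVPS37ABC and siCTRL (horizontal axis) with its 95% interval for each tested member, ordered within 4 roles, n = 3 per group. Filled points passed an adjusted p of 0.05, and the dotted line is the median of all tested genes (0.03); filled points lie to the right except ALDH18A1 at -0.69.

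Of the 20 cytosolic synthetases, which attach amino acids to their tRNAs, CARS and GARS rose in siVPS37ABC and none fell. CARS (cysteine) had 17.3, 13.2 and 14.2 TPM in siVPS37ABC, against 9.98, 7.93 and 7.03 TPM in siCTRL. The groups did not overlap, with a difference of 0.77 ± 0.18, or 1.71-fold (adjusted p = 0.00245). GARS, which serves glycine in cytosol and mitochondria, had 246, 201 and 206 TPM in siVPS37ABC, against 190, 127 and 111 TPM in siCTRL. Its difference was 0.64 ± 0.22, or 1.56-fold (adjusted p = 0.0409).

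Both rises depended on the control used. NT cells had 13.5, 9.95 and 14.5 TPM of CARS and 254, 188 and 217 TPM of GARS, ranges that overlap those of siVPS37ABC. With NT in place of siCTRL the difference of CARS in siVPS37ABC was 0.23 (adjusted p = 0.382) and that of GARS was -0.01 (adjusted p = 0.981). The GARS call also ended on the rebuilt reads (adjusted p = 0.0661), after quantile normalization (0.0611), with the library number (0.194) and without siVPS37ABC replicate 1 (0.137), 2 (0.0626) or 3 (0.0641) or siCTRL replicate 2 (0.124) or 3 (0.198).

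WARS (tryptophan) had 101.5, 124 and 157 TPM in siVPS37ABC, against 77.1, 79.9 and 103 TPM in siCTRL. This difference of 0.54 ± 0.22 did not pass (adjusted p = 0.0775), but did with the batch block (0.00415), with the library number (0.00313) and without siVPS37ABC replicate 1 (0.0431). HARS (histidine) differed by 0.36 ± 0.22 (adjusted p = 0.275), and passed with the batch block (0.0357), with the library number (0.000794) and against NT (0.69, adjusted p = 0.0246). MARS (methionine) and TARS (threonine) passed with the library number (adjusted p = 0.0366 and 0.0378). The remaining synthetases lay between -0.35 ± 0.19 (LARS, leucine) and 0.39 ± 0.22 (SARS, serine). LARS had 7.57, 9.39 and 13.5 TPM in siVPS37ABC, against 17.5, 11.5 and 10.6 TPM in siCTRL, and reached an adjusted p of 0.05 when siVPS37ABC replicate 3 was left out.

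Of the cytosolic synthetases, 8 (DARS, EPRS, IARS, KARS, LARS, MARS, QARS and RARS) belong to the multisynthetase complex, a large assembly held by scaffold proteins. None of these 8 passed in siVPS37ABC and their median was -0.06. Among the 12 others 2 rose and the median was 0.29. Of all tested genes 13.6% rose, and the difference between the 2 sets was not tested. In siCTRL against NT, a comparison that uses the same siCTRL libraries, the medians were 0.07 for the complex and -0.21 for the others. The 17 mitochondrial synthetases, which have their own genes, had 10 tested members. None of these passed in siVPS37ABC, with a median of -0.14. LARS2 (-0.39 ± 0.14, adjusted p = 0.0506) fell with the batch block (0.0227), after quantile normalization (0.0167), on the rebuilt reads (0.019) and against NT (0.022). MARS2 (-0.36 ± 0.16, adjusted p = 0.103) fell with the batch block (0.0466) and on the rebuilt reads (0.0494).

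Set side by side in siVPS37ABC, the 12 genes of amino acid synthesis and transport had 2 rises, 1 fall and a median of 0.04, and the 20 cytosolic synthetases had 2 rises, no fall and a median of 0.16. The interquartile range was -0.01 to 0.10 for the amino acid genes and -0.11 to 0.31 for the synthetases. The medians shifted with the scaling, as did that of all tested genes, which was 0.03 here, -0.02 after quantile normalization and -0.03 on the rebuilt reads. The median of the amino acid genes was 0.00 after quantile normalization and -0.02 on the rebuilt reads, and that of the synthetases 0.10 in each case. Summed over the group, synthetases reached 2621 ± 143 TPM in siVPS37ABC and 2307 ± 93.7 TPM in siCTRL (SD, n = 3), with ranges of 2502 to 2779 and 2199 to 2366 TPM that did not overlap. Amino acid genes reached 2656 ± 112 TPM in siVPS37ABC and 2510 ± 105 TPM in siCTRL, with ranges that did. NT had 2476 ± 15.8 TPM of synthetases and 2563 ± 195 TPM of amino acid genes. The NT range of synthetases, 2461 to 2492 TPM, also lay wholly above that of siCTRL, and just below that of siVPS37ABC. So the lack of overlap with siCTRL is not particular to siVPS37ABC. The synthetase ranges of siVPS37A, siVPS37AB and siVPS37AC lay above that of siCTRL too, and those of siVPS37BC and siVPS37C overlapped it. For the genes that did not pass, the data bound a rise: all 9 such amino acid genes and all 18 such synthetases had an upper 95% bound below 2-fold, and 8 and 13 of them below 1.5-fold. The highest of these bounds were 0.72 (ASNS) and 0.99 (WARS) on the log2 scale. Fitted with the batch block, the bounds of the same 9 and 18 genes were again all below 2-fold, 9 and 15 of them below 1.5-fold, and the highest were 0.41 (PSPH, with ASNS at 0.39) and 0.83 (WARS).

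**Figure D3:**
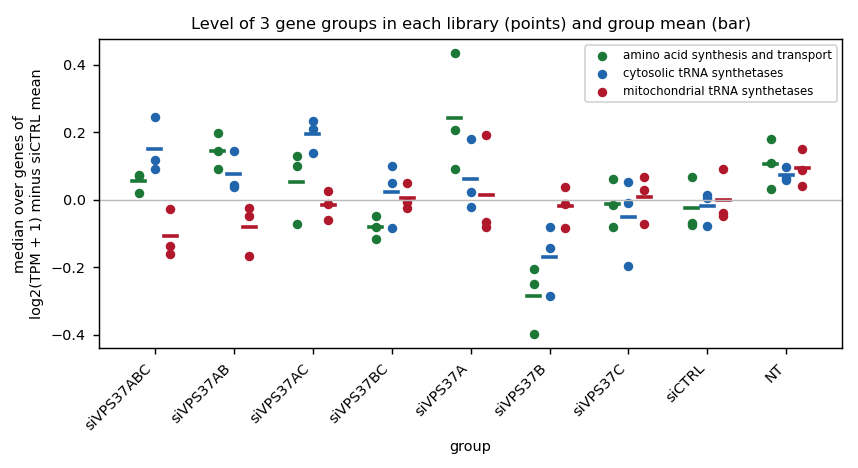
Median over genes of log2(TPM + 1) minus the siCTRL mean of the gene, in each library (points) with the group mean (bar), for 12 amino acid genes, 20 cytosolic synthetases and the mitochondrial synthetases in the 9 groups. Amino acid genes and cytosolic synthetases both have their lowest group mean in siVPS37B, where all 3 libraries lie below 0. All siVPS37BC libraries also lie below 0 for the amino acid genes. For the synthetases siVPS37C replicate 1 (-0.20) lies below siVPS37B replicates 2 (-0.14) and 3 (-0.08).

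In siVPS37AB, compared with the same siCTRL libraries, 4 members rose and 1 fell, where 14.8% of all tested genes changed, 11.2% upwards and 3.61% downwards. Rises and falls over all genes numbered 723 and 233 here, but 531 and 455 after quantile normalization. TRIB3 had 578, 534 and 472 TPM in siVPS37AB and rose by 0.73 ± 0.14 (adjusted p = 0.000768). SLC38A2 had 130, 110 and 155 TPM and rose by 0.84 ± 0.25 (adjusted p = 0.0232). MTHFD2 had 354, 236 and 283 TPM and rose by 0.63 ± 0.20 (adjusted p = 0.0287).

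CARS had 16.7, 13.1 and 14.7 TPM in siVPS37AB and rose by 0.77 ± 0.18 (adjusted p = 0.00416). ALDH18A1 had 35.4, 38.6 and 33.9 TPM and fell by 0.44 with an SE of 0.12 (adjusted p = 0.0107). None of these 5 genes overlapped siCTRL, but they were picked by the test on the same values, so this adds no separate support. The share of all tested genes without overlap was not counted. GARS (0.61 ± 0.22), SARS (0.59 ± 0.22) and WARS (0.57 ± 0.22) did not pass (adjusted p = 0.0653, 0.0688 and 0.0778) but did with the batch block (0.023, 0.0408 and 0.00378). Over all tested genes 1652 of 6458 passed with the block, against 956 without it. With NT in place of siCTRL, TRIB3 (0.34, adjusted p = 0.0886) and CARS (0.23, adjusted p = 0.419) did not pass.

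Single libraries mattered for 3 of the 5 genes that changed in siVPS37AB. The adjusted p of SLC38A2 was 0.0628 without siVPS37AB replicate 1, 0.109 without replicate 3, and 0.0771 and 0.102 without siCTRL replicates 1 and 3. For MTHFD2 it was 0.165 and 0.0662 without siVPS37AB replicates 1 and 3, and 0.084 and 0.14 without siCTRL replicates 2 and 3. For ALDH18A1 it was 0.0521 without siVPS37AB replicate 3 and 0.0555 without siCTRL replicate 3. siVPS37AB shares no library number with siCTRL, so the fit with that number compares them only through other groups. With the library number MTHFD2 (0.244) and ALDH18A1 (0.17) did not pass, nor did MTHFD2 after quantile normalization (0.0571). In the other direction, GARS passed without siCTRL replicate 1 (0.0208) or siVPS37AB replicate 2 (0.0203). WARS passed with the library number (0.0188) and with only the groups compared in the fit (0.0235), SARS with only the groups compared (0.0093), and SLC3A2 against NT (0.47, adjusted p = 0.0196).

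**Figure D4:**
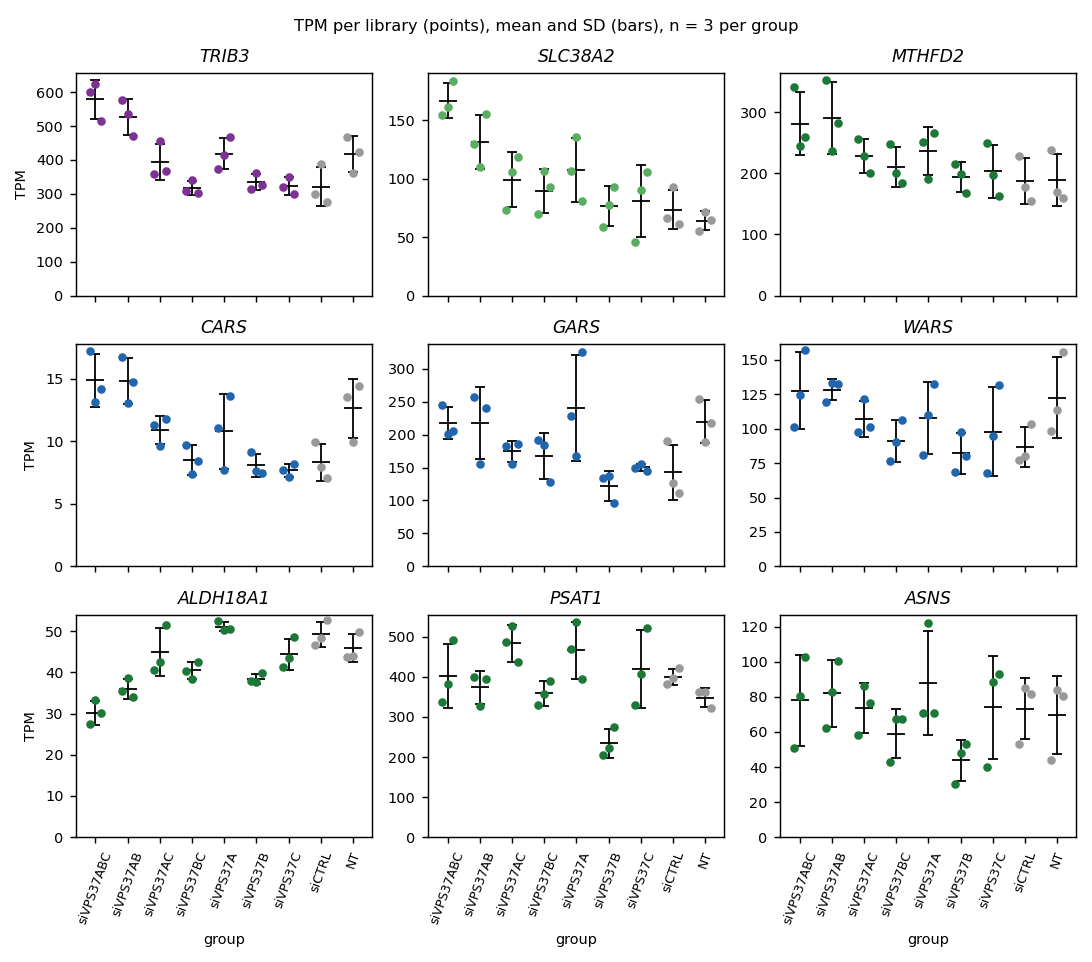
TPM in each library (points) with the mean and SD (bars) of 9 members in the 9 groups, n = 3 per group, on axes that start at 0. SLC38A2 is at 155 TPM or more in each siVPS37ABC library and at most 92.6 TPM in siCTRL, CARS and GARS are higher in NT than in siCTRL on average, and PSAT1 is lowest in siVPS37B.

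In siVPS37AC 1 member rose, where 4.4% of all tested genes changed. NARS (asparagine) had 157, 146 and 124 TPM in siVPS37AC, against 106, 93.9 and 95.4 TPM in siCTRL. This is a difference of 0.52 ± 0.15, or 1.44-fold, without overlap (adjusted p = 0.0393). The call ended on the rebuilt reads (adjusted p = 0.0603), after quantile normalization (0.0688), with only the groups compared in the fit (0.0518), against NT (0.0809), and without siVPS37AC replicate 1 (0.161) or 2 (0.139) or siCTRL replicate 1 (0.061), 2 (0.129) or 3 (0.11). Small positive differences were common in this group, with 31 of 36 members above 0 and a median of 0.17 against 0.07 for all tested genes.

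In siVPS37A no member passed in limma, nor in limma-voom on the rebuilt reads. By the adjusted p 1.83% of all tested genes changed. At an unadjusted p below 0.05 there were 8 of the 36 members and 854 of the 6458 tested genes. All 12 amino acid genes lay above 0, with a median of 0.26 against 0.05 for all tested genes, and the 20 synthetases had a median of 0.04. GARS had 228, 167 and 326 TPM in siVPS37A, against 190, 127 and 111 TPM in siCTRL. With the batch block GARS (0.74, adjusted p = 0.0222), CHAC1 (0.67, 0.0292) and PSPH (0.38, 0.0334) passed, and GARS also passed without siCTRL replicate 1 (0.0467) or siVPS37A replicate 2 (0.0319). Over all tested genes 409 of 6458 passed with the block, against 118 without it.

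In siVPS37B both classes stood at their lowest. The amino acid genes summed to 2020 ± 89.8 TPM in siVPS37B and 2510 ± 105 TPM in siCTRL, and the synthetases to 2066 ± 68.6 TPM in siVPS37B and 2307 ± 93.7 TPM in siCTRL. For both sums all 3 siVPS37B libraries lay below every library of the other groups. Of the 36 members 27 were below 0, with a median of -0.22 against -0.02 for all tested genes. For the amino acid genes the median was -0.31, and for the synthetases -0.21, with 17 of 20 below 0.

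In siVPS37B 1 member passed the test, where 1.72% of all tested genes changed. PSAT1 had 206, 223 and 274 TPM in siVPS37B, against 382, 397 and 422 TPM in siCTRL. It fell by 0.78 on the log2 scale, with an SE of 0.16, to 0.583 of the siCTRL level (adjusted p = 0.0112). The call ended without siVPS37B replicate 1 (adjusted p = 0.0834) or 2 (0.055) or siCTRL replicate 3 (0.0712), with the library number (0.0843) or with only the groups compared in the fit (0.0784), and held with NT in place of siCTRL (-0.58, adjusted p = 0.0367). Against NT 5 further members fell in siVPS37B, namely PHGDH (-0.81, adjusted p = 0.000624), PSPH (-0.46, 0.0241), SHMT2 (-0.58, 0.0298), PYCR1 (-0.65, 0.0315) and GARS (-0.85, 0.03). With NT as reference 164 of the 6458 tested genes fell in siVPS37B and 103 rose. NT itself averaged more than siCTRL for these 5 members, from 119% (PSPH) to 154% (GARS). Falls against NT were not particular to siVPS37B. In siVPS37C PHGDH (-0.58, adjusted p = 0.0102), PYCR1 (-0.70, 0.0162), CARS (-0.64, 0.0326) and VARS (-0.70, 0.0102) fell against NT. There 230 of all tested genes fell and 128 rose.

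With the batch block 5 more members fell in siVPS37B, where 309 of the 6458 tested genes fell, against 51 without it. ASNS had 30.3, 48.0 and 52.9 TPM in siVPS37B, against 53.2, 85.2 and 81.4 TPM in siCTRL, lower in each batch. Its difference of -0.74 ± 0.32 had an adjusted p of 0.246 without the block and 0.00587 with it. PHGDH (-0.45, adjusted p = 0.0218 with the block), ALDH18A1 (-0.35, 0.0347), YARS (-0.39, 0.0398) and ATF4 (-0.36, 0.0343) were the others. ATF4 had 604, 735 and 741 TPM in siVPS37B, against 868, 922 and 874 TPM in siCTRL, without overlap. SARS had 133, 149 and 51.6 TPM in siVPS37B, against 131, 144 and 139 TPM in siCTRL, so its mean there rests on 1 low library.

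Against siCTRL no member passed in siVPS37C, where 0.496% of all tested genes changed, or in siVPS37BC, where 1.29% did, in limma or in limma-voom. At an unadjusted p below 0.05 there were 1 and 3 members, and 522 and 798 of the 6458 tested genes. The medians of the members were 0.02 in siVPS37C and 0.01 in siVPS37BC. In siVPS37C 35, and in siVPS37BC 33, of the 36 members lay within 0.3 of siCTRL on the log2 scale. PSAT1, low in siVPS37B, had 330, 357 and 390 TPM in siVPS37BC and 400, 326 and 395 TPM in siVPS37AB.

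The control transfection itself was compared with no transfection. No member passed in siCTRL against NT in limma or limma-voom, where 3.17% of all tested genes changed. An unadjusted p below 0.05 was found for 11 of the 36 members and for 1105 of the 6458 tested genes. With the batch block 4 synthetases were lower in siCTRL: CARS (-0.55 ± 0.14, SE with the block, adjusted p = 0.0124), GARS (-0.65 ± 0.20, 0.0379), VARS (-0.43 ± 0.13, 0.0331) and WARS (-0.48 ± 0.14, 0.0329). The 3.17% comes from the fit without the block, and the share of all tested genes with the block is not given here. VARS (valine) had 104, 111 and 118 TPM in siCTRL, against 182, 146 and 128 TPM in NT, without overlap. WARS had 77.1, 79.9 and 103 TPM in siCTRL, against 98.5, 114 and 156 TPM in NT. TRIB3 had 300.5, 387 and 276 TPM in siCTRL, against 469, 362 and 422 TPM in NT, and its rise in siVPS37ABC held against NT (0.47, adjusted p = 0.0129). SLC38A2 (1.37, adjusted p = 0.000227), MTHFD2 (0.58, 0.0307) and ALDH18A1 (-0.59, 0.000515) also kept their direction and passed in siVPS37ABC against NT. PHGDH (-0.36, adjusted p = 0.0475) and PYCR1 (-0.48, 0.0437) fell in siVPS37ABC against NT, though not against siCTRL. Without siCTRL replicate 1 PYCR1 passed in siCTRL against NT (-0.73, adjusted p = 0.0205), and without NT replicate 2 CARS did (-0.70, 0.0423).

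The siVPS37ABC cells were also set against each pair. No member passed in siVPS37ABC against siVPS37AB in limma or limma-voom, the median of the members was -0.01, and 1.04% of all tested genes changed. At an unadjusted p below 0.05 there were 1 of the 36 members and 578 of the 6458 tested genes. Of 12 amino acid genes and 20 synthetases, each had a 95% interval that stays below a 2-fold rise.

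Against siVPS37AC, where 4.35% of all tested genes changed, TRIB3 was higher in siVPS37ABC (601, 623 and 515 TPM, against 358, 456 and 367 TPM in siVPS37AC, 0.56 ± 0.14, adjusted p = 0.0172). ALDH18A1 was lower there (-0.55 ± 0.12, adjusted p = 0.00502). With the batch block SLC38A2 (0.76, adjusted p = 0.0134), CARS (0.41, 0.049) and SLC7A5 (-0.62, 0.0204) passed too. The 4.35% comes from the fit without the block, and the share with it is not given here. TRIB3 did not pass without siVPS37ABC replicate 1 (0.0681) or 2 (0.0934) or siVPS37AC replicate 1 (0.106) or 3 (0.0844), and ALDH18A1 did not without siVPS37AC replicate 3 (0.0519) or with only the groups compared in the fit (0.0734).

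Against siVPS37BC, where 12% of all tested genes changed, TRIB3 (0.87 ± 0.14, adjusted p = 0.000141), SLC38A2 (0.90 ± 0.25, 0.0172) and CARS (0.74 ± 0.18, 0.00661) were higher in siVPS37ABC and ALDH18A1 was lower (-0.41 ± 0.12, 0.0197). TRIB3 had 307, 341 and 302 TPM in siVPS37BC, and the groups did not overlap. SLC38A2 did not pass without siVPS37BC replicate 1 (0.11) or siVPS37ABC replicate 3 (0.0724). ALDH18A1 did not without replicate 1 or 3 of siVPS37ABC (0.0894 and 0.0503) or of siVPS37BC (0.0603 and 0.0747), or with only the groups compared in the fit (0.0952). With the batch block MTHFD2, CHAC1, WARS, ATF4 and ATF5 passed as well (adjusted p = 0.0169, 0.0115, 0.0177, 0.0402 and 0.0459). The 12% comes from the fit without the block, and the share with it is not given here.

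The design also asks whether a pair departs from the sum of its single knockdowns on the log2 scale. No member passed for any pair in limma or limma-voom, and 0% of all tested genes did in limma. Over all genes 483, 250 and 300 had an unadjusted p below 0.05 for siVPS37AB, siVPS37AC and siVPS37BC, limma-voom called 1, 0 and 0, and limma with the batch block called 33, 0 and 2. Among the members 1, 0 and 4 had such a p. The smallest adjusted p was 0.645 (SLC3A2, siVPS37AB). The median departure of the members was 0.23 in siVPS37AB, -0.04 in siVPS37AC and 0.19 in siVPS37BC. Over all tested genes it was 0.06, 0.02 and 0.05. The median SE of a member's departure was 0.23 for each pair, so the lack of calls does not exclude departures of this size.

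Further stress genes were tallied beside the members. Of 10 tested genes of a separate list of ATF4 targets, 6 rose in siVPS37ABC and none fell, with a median of 0.76, where 13.6% of all tested genes rose. These counts were 6 and 1 with the batch block. Their leading genes were the transcription factor ATF3 (1.97 ± 0.27, adjusted p = 5.71e-06), the angiogenic growth factor VEGFA (1.09 ± 0.16, 1.35e-05), the mTORC1 inhibitor SESN2 (1.13 ± 0.19, 7.36e-05) and the cystine carrier SLC7A11 (1.84 ± 0.32, 0.000126). In siVPS37AB 5 of the 10 rose, with a median of 0.71, where 11.2% of all tested genes rose. Of 10 chaperones and degradation factors of the endoplasmic reticulum, 8 rose in siVPS37ABC and 9 in siVPS37AB, with medians of 0.72 and 0.79. DNAJB9 (1.58 ± 0.21), EDEM1 (1.00 ± 0.14), HERPUD1 (1.40 ± 0.21) and PDIA4 (0.90 ± 0.16) led them in siVPS37ABC (adjusted p = 4.58e-06, 9.21e-06, 2.91e-05 and 0.000144). Several of these genes respond to factors besides ATF4, and no test compared the lists with each other. The lists were chosen with earlier results of these data known. Their counts beside the share of all tested genes are therefore no evidence of enrichment.

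Among 6 tested genes for eIF2, its kinases and its phosphatase, PPP1R15A, the stress-induced phosphatase subunit that restores translation, rose in siVPS37ABC (1.44 ± 0.45, adjusted p = 0.0209) and siVPS37AB (1.61 ± 0.45, 0.0159). Against NT no gene of this list passed in siVPS37ABC. Of 6 further genes of serine, one-carbon and proline metabolism 1 rose and 2 fell in siVPS37ABC. The cytosolic folate enzymes SHMT1 (-0.59 ± 0.16, adjusted p = 0.0103) and MTHFD1 (-0.43 ± 0.15, 0.0395) were the 2 that fell. Of 4 scaffold and tRNA export genes XPOT, the nuclear exporter of tRNA, fell in siVPS37ABC (-0.62 ± 0.17, adjusted p = 0.00912) and siVPS37BC (-0.70 ± 0.17, 0.0344), and differed by 0.15 ± 0.17 in siVPS37AB. It differed by -0.64 in siVPS37C and -0.55 in siVPS37AC, neither of which passed. XPOT thus lay below siCTRL in every group given the VPS37C siRNA, and whether that siRNA acts on XPOT itself was not tested. The epithelial markers moved as well in siVPS37ABC. Of 7 tested, KRT19 (0.63 ± 0.13), CDH17 (0.55 ± 0.14) and EPCAM (0.34 ± 0.11) rose and CDX2 (-1.30 ± 0.18) fell (adjusted p = 0.000678, 0.00664, 0.0331 and 1.06e-05), where 13.6% of all tested genes rose and 8.32% fell. Against NT 1 of the 7 rose and 1 fell. Their part in the changes above was not tested, and fewer cells of a kind cannot be told apart from less RNA per cell in these bulk samples.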

How the data were processed

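The single table deposited by the authors holds 1 value per gene and library, and each of its 27 columns sums to 1000000, so the deposited values were taken as TPM. Per the submitters' processing notes, the tools included DESeq2 1.18.1 and HTSeq 0.6.0, and the build was hg19; their roles are not given. No other column held sample values (0), and 2157 empty lines were left out.

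Whole reads were rebuilt: the values of 10469 of 10470 genes (99.99%), times 1 whole-number length per gene and over 1 step per library, came out whole in every library (tolerance 0.02 reads), and none of 300 shuffled profiles did. Depth limits precision little for most members: at the lowest read count of a member, counting error was 21.3% for CEBPB and at most 12.6% for a tested member. TPM fell with transcript length over genes (Spearman -0.44) while reads did not (-0.06), and a panel reads 1 amplicon per transcript, so levels are compared within a gene, not between genes. Sums over genes still carry this weighting by length and are compared only between libraries. High genes weigh most in them, SLC3A2 and PSAT1 among the amino acid genes.

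Limma 3.58.1 in R 4.3.3 (lmFit, eBayes with an intensity trend) was fitted to log2(TPM + 1), which understates folds of low genes, for genes averaging 10 TPM or more, with 9 group means and 18 residual degrees of freedom. P-values were adjusted by Benjamini-Hochberg within each comparison. The model was refitted with the replicate block, quantile normalization, other filters and pseudocount, the library number, NT as reference, only the groups compared, and leaving out each library; limma-voom on the rebuilt reads was added after the data were seen. The fit was tested on simulated data. Tables and figures were made in Python 3.11.15 (pandas 2.3.3, numpy 2.4.6, matplotlib 3.10.9). Replicate pairs differed beyond counting noise (chi-square per degree of freedom 11.2 to 72.5), so no pair was taken for 1 library deposited again; this does not show that the cultures were separate.

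The labels give each replicate number as a batch. Libraries of the same number deviated together (mean r 0.355, above 0.1 in 95 of 108 pairs, lowest -0.386; other numbers -0.175), so values with the block are printed where they change a call.

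The members and lists were chosen with earlier results of these data known. All 39 members could be named. Of other lists, up to 4 genes with the smallest p past the threshold in siVPS37ABC were named, or 2 where none passed. The result of 1 gene of these lists is not reported here. Motifs were searched in RefSeq promoters of GRCh38.p14.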

Additional observations from a re-analysis of the deposited data

How the results depend on the processing

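Counts of amino acid genes (of 12) and of synthetases (of 20) that passed in limma against siCTRL are compared here with those under each alternative, and the cause of a move was not tested except where fewer genes or samples made it. With the replicate block the amino acid genes numbered 1 in siVPS37A (0 without it) and 4 in siVPS37B (1), and the synthetases 1 in siVPS37A (0), 1 in siVPS37B (0), 4 in siVPS37AB (1) and 4 in siVPS37ABC (2). Members that passed with the block numbered 4 in siCTRL against NT (0), 5 in siVPS37ABC against siVPS37AC (2) and 9 against siVPS37BC (4). The block changed no other of these counts by more than 1.5 times, but over all tested genes it raised the calls to 2137 in siVPS37ABC (1417 without it), 1652 in siVPS37AB (956), 762 in siVPS37AC (284), 283 in siVPS37BC (83), 409 in siVPS37A (118), 607 in siVPS37B (111) and 134 in siVPS37C (32). On the rebuilt reads with limma-voom, an alternative chosen after seeing the data, the synthetases numbered 0 in siVPS37AC (1) and 1 in siVPS37ABC (2). With limma-voom and the block, the amino acid genes numbered 4 in siVPS37B, the synthetases 1 in siVPS37A and 4 in siVPS37AB, and the members 6 in siCTRL against NT and 5 and 7 in siVPS37ABC against siVPS37AC and siVPS37BC.

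With NT in place of siCTRL the amino acid genes numbered 1 in siVPS37A, 5 in siVPS37B, 2 in siVPS37C, 1 in siVPS37AC and 5 in siVPS37ABC, and the synthetases 1 in siVPS37B, 2 in siVPS37C, 0 in siVPS37AB and 1 in siVPS37ABC. There the rise of GARS in siVPS37ABC was absent (-0.01, adjusted p = 0.981). PYCR1, which had no clear direction against siCTRL, fell in siVPS37ABC against NT (-0.48, adjusted p = 0.0437). Over all tested genes NT as reference raised the calls to 458 in siVPS37A (118 against siCTRL), 267 in siVPS37B (111), 358 in siVPS37C (32) and 1227 in siVPS37AB (956). With the library number (the number that ends each library's description) as a factor the amino acid genes numbered 0 in siVPS37B, 1 in siVPS37AB and 1 in siVPS37AC, the synthetases 2 in siVPS37AB, 5 in siVPS37AC and 5 in siVPS37ABC, and the members 5 in siCTRL against NT and 7 in siVPS37ABC against siVPS37BC. siVPS37A, siVPS37AB and siVPS37BC share no library number with siCTRL, so this fit compares them with it only through other groups. With only the groups compared, which leaves fewer samples, the amino acid genes numbered 0 in siVPS37B and the synthetases 3 in siVPS37AB and 0 in siVPS37AC. Quantile normalization left 0 synthetases in siVPS37AC and 1 in siVPS37ABC. A minimum of 50 TPM, which drops CARS and ALDH18A1, left 0 synthetases in siVPS37AB, 1 in siVPS37ABC, and 1 and 2 members in siVPS37ABC against siVPS37AC and siVPS37BC.

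Leaving out each library in turn gave 0 to 3 amino acid genes in siVPS37AB, 2 to 3 in siVPS37ABC and 0 to 1 in siVPS37B, and 0 to 1 synthetases in siVPS37A, 1 to 2 in siVPS37AB, 1 to 2 in siVPS37ABC and 0 to 1 in siVPS37AC. Members numbered 0 to 1 in siCTRL against NT, 0 to 2 in siVPS37ABC against siVPS37AC and 2 to 4 against siVPS37BC. No filter and a pseudocount of 8 changed none of these counts by more than 1.5 times.

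TRIB3, SLC38A2, CARS and ALDH18A1 in siVPS37ABC passed in every alternative that tested them, with each library left out in turn included, except CARS against NT. Depth limits few of these results, since only CEBPB, CEBPG and CARS had fewer than 100 reads in a library.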
